A study of Homo sapiens with 6 samples.

Results

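Polq, the gene of DNA polymerase theta, was followed here through a screen of paired gene knockouts in the DNA repair network. Every construct that held a guide RNA named for Polq was taken, which gave 3710 of 863546 guide pairs, or 0.430%, from 4 guides. Polq is 1 of 459 targeted genes in the library, and its guides met guides of all 458 other genes. Of the 3710 constructs, 122 paired a Polq guide with a non-targeting guide, which has no target gene, and 4 held guides of Polq at both positions. Guides 1 and 2 of Polq (Polq_sg1, Polq_sg2) stood at position 1 of the construct, and guides 3 and 4 (Polq_sg3, Polq_sg4) at position 2. The library writes gene names as mouse symbols although the cells are human. The human gene, POLQ, lies on chromosome 3 from 121431431 to 121545988 in assembly GRCh38.p14, and where in it the guides cut was not used here.

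DNA polymerase theta joins the ends of double-strand breaks by alternative end joining, in which short matching stretches on resected ends pair and the polymerase fills in from them. It has a helicase-like domain at one end and a family A polymerase domain at the other. The pathway competes with homologous recombination, in which BRCA1, PALB2 and BRCA2 act, and 53BP1 (Trp53bp1 in the library) holds back the end resection that both pathways need. Cells that lack homologous recombination are known for depending on POLQ.

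The cells were eHAP iCas9-cl#6, a near-haploid human line derived from HAP1, here a single clone that lacks p53 and makes Cas9 when doxycycline is added. All groups carried the same library of paired guides. The 3 groups were cells at day 0, cells at day 14 after 12 population doublings of standard growth, and irradiated cells, which got 0.6 Gy of X-rays the day after every split and were taken at day 15 after 10 doublings, with 2 libraries each. Doxycycline was given for the first 7 days, and the irradiated group therefore differed from the day 14 group in dose, in day and in doublings. The labels call the dose LD20 in one place and LD30 in another. Nothing in the labels says that the replicates were separate transductions, so p-values measure the spread between these libraries, which may be technical. A read count stands for the abundance of cells that carried a construct, and whether Polq was cut in those cells was not measured.

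The libraries held between 61185707 and 86587125 reads. Day 14 replicate 1 and irradiated replicate 2 stood apart, since 54.1% and 49.4% of all guide pairs had no reads there, against 1.93% to 7.62% in the other 4 libraries. For the constructs of Polq these shares were 64.6% and 59.7%, against 1.35% to 9.43%. In these incomplete libraries a few constructs held many of the reads of some small sets, which also occurred in complete ones. Results are given with all 6 libraries and again without these 2. Without them the day 14 and irradiated groups hold 1 library each, and the test assumes that it varies as the day 0 libraries do. Day 0 replicate 1 differed from replicate 2 at position 2, where 264 of 927 guides were lower, by a median of -0.62 on the log2 scale, and the rest higher, by 0.22. Neither Polq_sg3 (0.13) nor Polq_sg4 (0.14) was among the 264.

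Over all partners, no guide of Polq changed beyond the spread between libraries in any of the 3 comparisons. Levels are given in CPM, the usual scaling of the reads of a guide to the total of its library. Polq_sg1 was the most abundant of the 4, with 1071 and 1093 CPM at day 0, 1132 and 953 at day 14, and 1043 and 1112 after irradiation. These groups overlapped, with the lowest and the highest value both at day 14. Polq_sg2 held 453 and 460 CPM at day 0, 433 and 467 at day 14, and 468 and 455 after irradiation. The lowest of these was at day 14 and the highest after irradiation, and the groups overlapped.

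At position 2, Polq_sg4 had lower values in both later groups and Polq_sg3 only after irradiation, within the spread between libraries. Polq_sg3 had 712 and 652 CPM at day 0, 661 and 662 at day 14, and 646 and 566 after irradiation. Both irradiated libraries were below all 4 others. Polq_sg4 had 645 and 587 CPM at day 0, 448 and 574 at day 14, and 550 and 407 after irradiation. Both later groups lay below day 0 in each library, and the 2 incomplete libraries were the lowest.

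**Figure D1:**
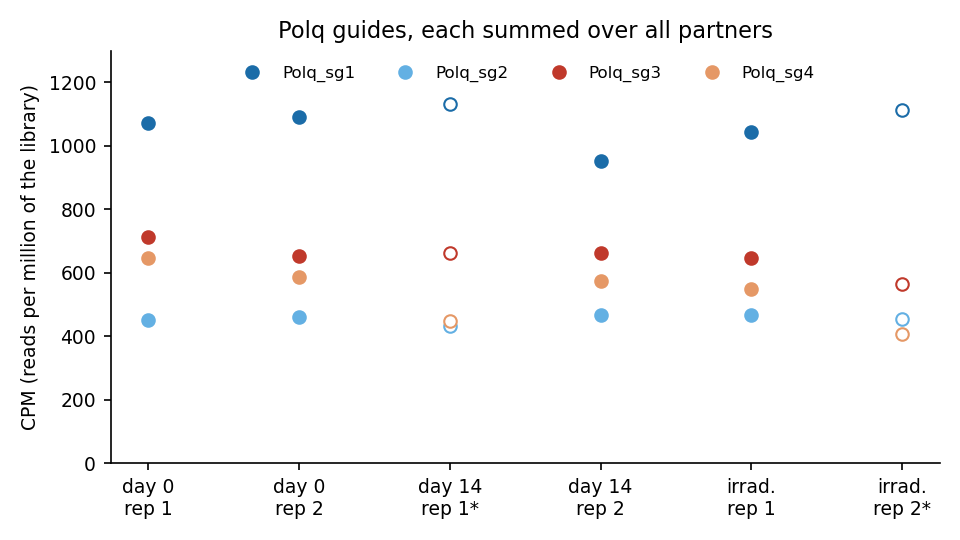
Level of each Polq guide, summed over all its partners and in CPM, in the 6 libraries. Each point is 1 library, and open circles with an asterisk on the axis mark the 2 incomplete libraries. Polq_sg1 stays between 953 and 1132, and the lowest values of Polq_sg4, 407 and 448, are in the incomplete libraries.

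Each guide was tested with edgeR's quasi-likelihood test, fitted to 1849 guides and adjusted by Benjamini-Hochberg at a threshold of 0.05. At day 14 against day 0, 0 of 4 Polq guides passed, beside 0% of all guides, and 79 of the 1849 had an unadjusted p under 0.05. The log2 changes were -0.047 for Polq_sg1, -0.014 for Polq_sg2, 0.0067 for Polq_sg3 and -0.22 for Polq_sg4. The interval of Polq_sg4 ran from -0.66 to 0.22 (95%, adjusted p = 0.656). Of 36 non-targeting guides at position 2, 4 had a lower value than Polq_sg4.

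In irradiated cells against day 0, 0 of 4 Polq guides passed, beside 0% of all guides and 57 of 1849 at an unadjusted p under 0.05. Polq_sg1 and Polq_sg2 stood at -0.0015 and 0.021. Polq_sg3 had a log2 change of -0.12 (-0.32 to 0.073) and Polq_sg4 one of -0.32 (-0.76 to 0.12), both at an adjusted p of 0.789. Polq_sg4 lay below all 36 non-targeting guides of its position, whose lowest was -0.29, and at percentile 2.59 of the 927 guides there. Both guides were lower in 4 of 4 comparisons of single libraries.

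Against day 14 the irradiated cells showed 0 of 4 Polq guides called, beside 0% of all guides and 83 of 1849 at an unadjusted p under 0.05. Polq_sg3 had a log2 change of -0.13 (-0.33 to 0.067, adjusted p = 1.00), which was below the lowest of the 36 non-targeting guides, -0.12. It was lower in 4 of 4 library comparisons, with log2 differences of -0.23 to -0.034. Polq_sg4 was at -0.099, Polq_sg1 at 0.045 and Polq_sg2 at 0.035.

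Without the 2 incomplete libraries the values of the position 2 guides came closer to 0. Polq_sg4 was at -0.057 at day 14 and -0.12 after irradiation against day 0, and Polq_sg3 at -0.033 after irradiation. Polq_sg1 moved the other way at day 14, to -0.18. The part of the incomplete libraries in these changes was otherwise not tested.

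**Figure D2:**
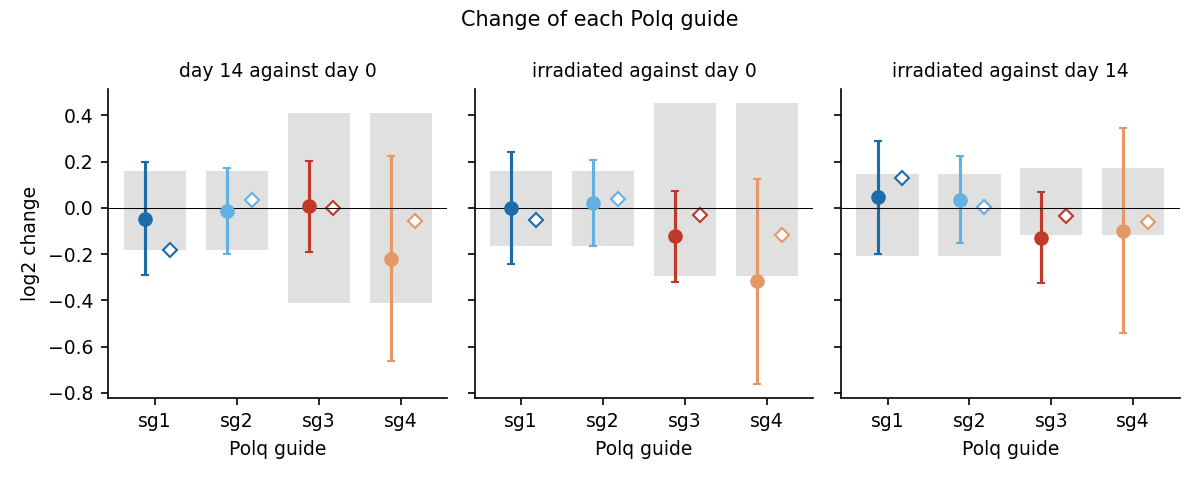
Log2 change of each Polq guide in the 3 comparisons. Filled points with bars give the fit to all 6 libraries with its 95% interval, open diamonds the value without the 2 incomplete libraries, and grey boxes the range of the non-targeting guides at the same position (25 at position 1, 36 at position 2). Every interval includes 0, and Polq_sg4 after irradiation against day 0 lies under its grey box at -0.32.

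Seen construct by construct, the partners of a Polq guide spread widely around a median close to that of the whole library. This was read in the complete libraries over constructs with a mean of at least 20 reads at day 0, as log2 changes with 2 added to each count, minus the median of all constructs. At day 14 the median was -0.13 over 865 constructs of Polq_sg1, -0.13 over 671 of Polq_sg2, -0.10 over 815 of Polq_sg3 and -0.19 over 783 of Polq_sg4. Among guides of the same position these stood at percentiles 11.4, 11.6, 41.1 and 17.4. The middle 50% of the constructs of Polq_sg1 ran from -0.70 to 0.33.

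After irradiation against day 0 the medians were -0.0031, -0.071, -0.19 and -0.22 in the same order. Polq_sg4 was again the lowest, at percentile 20.4 of its position. The width of the middle 50% was 1.28 for Polq_sg1 and 1.87 for Polq_sg2, against a median of 1.38 over position 1 guides. Between the complete irradiated and day 14 libraries the medians were 0.17, -0.14, -0.10 and -0.094, at percentiles 95.7, 8.57, 17.5 and 19.8. Polq_sg1 thus lay above all 25 non-targeting guides of its position, whose highest was 0.082, in this comparison of 1 library with 1 library, which has no replicate check. Polq_sg2 was the Polq guide with the fewest reads at day 0, at percentile 11.1 of position 1 guides.

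**Figure D3:**
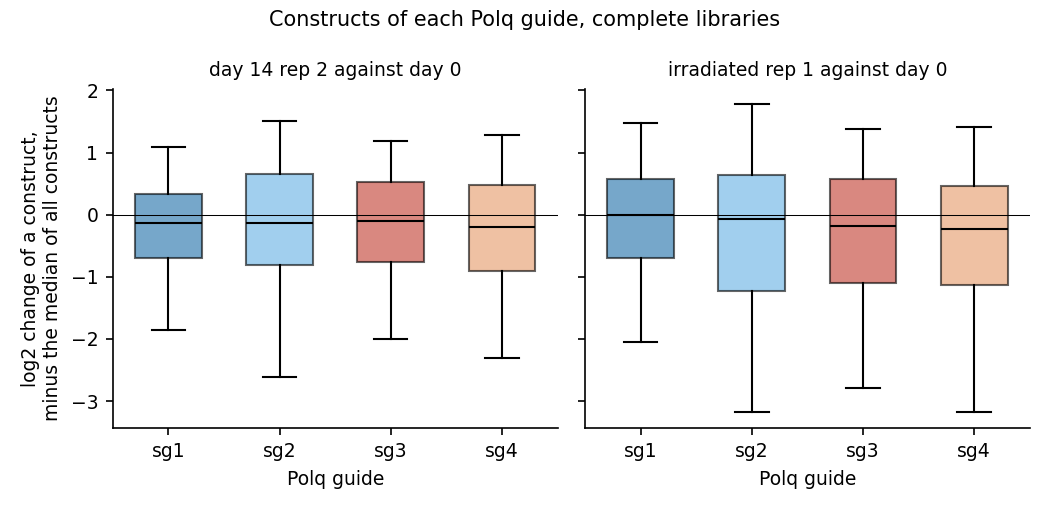
Spread of the constructs of each Polq guide in the complete libraries. The line is the median, the box holds the middle 50% of constructs and the whiskers reach the 5th and 95th percentile of the log2 change, after the median of all constructs in the library was subtracted. The 2 panels compare the day 14 and the irradiated library with day 0. Medians in them lie between -0.22 and -0.0031, while the boxes are 1.03 to 1.87 wide.

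Averaged over its guides, Polq varied over the 6 libraries from 0.11 to -0.13 on the log2 scale around its mean. Its range, 0.24, was wider than that of 55.0% of 455 genes with at least 3 guides. The genes most like it over the 6 libraries were Shld2 (Pearson r = 0.974), a subunit of shieldin, Gtf2h4 (0.971), a subunit of the repair and transcription factor TFIIH, and Rad54b (0.970), a recombination motor protein. The ranges of these genes were narrower than that of Polq, at 0.109, 0.137 and 0.185, since r does not take the size of a change into account. The measure rests on 6 libraries, 2 of them incomplete, and 82 genes reached 0.8. The median over all genes was 0.37.

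The loss of Polq alone was read from the 122 constructs with a non-targeting partner, and no change beyond the spread was detected. Together they held 5718 and 6472 reads at day 0, 3934 and 4753 at day 14, and 7183 and 6054 after irradiation. For every 1000 reads of pairs of non-targeting guides, these were 110 and 119, 116 and 125, and 160 and 117. Irradiated replicate 1 was the highest, and the other 5 libraries lay between 110 and 125.

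In that library 1 construct stood out. nt_5;Polq_sg3, the pair of non-targeting guide nt_5 with Polq_sg3, held 1708 of the 7183 reads there, after 94 and 357 reads at day 0, 1 and 644 at day 14, and 31 in the other irradiated library. With all constructs, edgeR gave Polq a single-knockout log2 change of 0.070 (-0.38 to 0.52, adjusted p = 0.969) at day 14, 0.27 (-0.18 to 0.72, adjusted p = 0.974) after irradiation and 0.20 (-0.25 to 0.65, adjusted p = 0.965) between irradiated and day 14 cells. In these 3 comparisons 0% of 459 genes passed the threshold, and 18, 12 and 13 had an unadjusted p under 0.05. When the largest construct of each gene was left out, the values for Polq became 0.018, 0.11 and 0.088. Without the 2 incomplete libraries they were 0.12, 0.48 (0.074 to 0.89, adjusted p = 0.729) and 0.36.

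Polq with Brca1, the ubiquitin ligase subunit that promotes resection, was measured by 6 constructs, since none with Brca1_sg1 had reads. Brca1 also had fewer pairs without Polq than Brca2 had (2687 against 3579). The summed reads of the 6 constructs were 463 and 629 at day 0, 3 and 449 at day 14, and 453 and 54 after irradiation. Day 14 replicate 1 and irradiated replicate 2, the incomplete libraries, were nearly empty, and the complete ones were within the range of day 0 or slightly above it, with 5.49 and 7.27 CPM at day 0, 7.34 at day 14 and 6.34 after irradiation. Such low sums were seen in other pairs too. In day 14 replicate 1, 29 of 458 pairs of Brca1 and 53 of 458 pairs of Polq had as few reads as Brca1 with Polq or fewer, and in irradiated replicate 2 these numbers were 20 and 49.

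The largest construct of this pair, Polq_sg1;Brca1_sg4, had 161 and 300 reads at day 0, 1 and 176 at day 14, and 264 and 11 after irradiation. Polq_sg2;Brca1_sg4 had 161 and 115, 0 and 119, and 95 and 22. Both kept their reads in the complete libraries. Brca1_sg2;Polq_sg3 was the construct that differed, with 49 and 34 reads at day 0, 2 and 53 at day 14, and 6 and 0 after irradiation. Polq_sg2;Brca1_sg3 had reads only in day 0 replicate 2, 11 of them, so it says nothing on a change.

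Beyond the medians of both its guides, the 5 constructs of Polq and Brca1 with at least 20 reads at day 0 had a median log2 change of 0.53 at day 14 in the complete libraries. All 5 were above 0, from 0.16 to 1.31. Over 3131 constructs of Polq the middle 50% ran from -0.62 to 0.58. After irradiation against day 0 the median of the 5 was -0.0076, with a range of -1.88 to 0.96.

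Brca2, a mediator of homologous recombination, met Polq in 8 constructs. Their summed reads were 682 and 721 at day 0, 1174 and 443 at day 14, and 516 and 785 after irradiation. The complete later libraries, with 7.24 and 7.22 CPM, were slightly below the 8.08 and 8.33 of day 0. Day 14 replicate 1 was the highest, and Brca2_sg1;Polq_sg4 alone held 696 of its 1174 reads. That construct had 245 and 246 reads at day 0, 170 in the other day 14 library, and 261 and 378 after irradiation. Beyond their guides the 8 constructs were split evenly at day 14, with 4 below and 4 above 0 and a median of -0.15. After irradiation 5 of 8 were below 0, with a median of -0.49 and a range of -2.99 to 0.87.

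Palb2, the bridge between BRCA1 and BRCA2, met Polq in 8 constructs with 586 and 719 reads at day 0, 175 and 525 at day 14, and 785 and 288 after irradiation. In CPM the complete irradiated library exceeded all 5 others, and day 0 had 6.94 and 8.31. Polq_sg1;Palb2_sg3 held 364 of the 785 reads there and 271 and 399 at day 0. Palb2_sg1;Polq_sg4 went from 9 and 10 reads at day 0 to 116 in that library, and to 0 in both incomplete ones. Beyond their guides, 4 of 6 constructs were above 0 at day 14 and 4 of 6 after irradiation against day 0, but not the same ones. Polq_sg1;Palb2_sg3 went from -0.016 at day 14 to 0.59 after irradiation, and Polq_sg1;Palb2_sg4 from 0.58 to -0.82. Palb2_sg1;Polq_sg3 was the lowest, at -3.24 at day 14, where it had 0 reads.

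Trp53bp1, which shields ends from resection, met Polq in 8 constructs with 461 and 501 reads at day 0, 771 and 325 at day 14, and 421 and 841 after irradiation. In the complete libraries the level stayed between 5.31 and 5.89 CPM, and the higher values, 12.4 and 9.71, were those of the incomplete ones. Trp53bp1_sg2;Polq_sg3 was high in just those libraries, with 45 and 15 reads at day 0, 338 and 3 at day 14, and 10 and 321 after irradiation. Trp53bp1_sg1;Polq_sg3 ran the other way, with 98 and 110, 1 and 115, and 189 and 0. Beyond their guides, 5 of 7 constructs were below 0 at day 14, with a median of -0.44, and 5 of 7 after irradiation, with a median of -0.55.

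**Figure D4:**
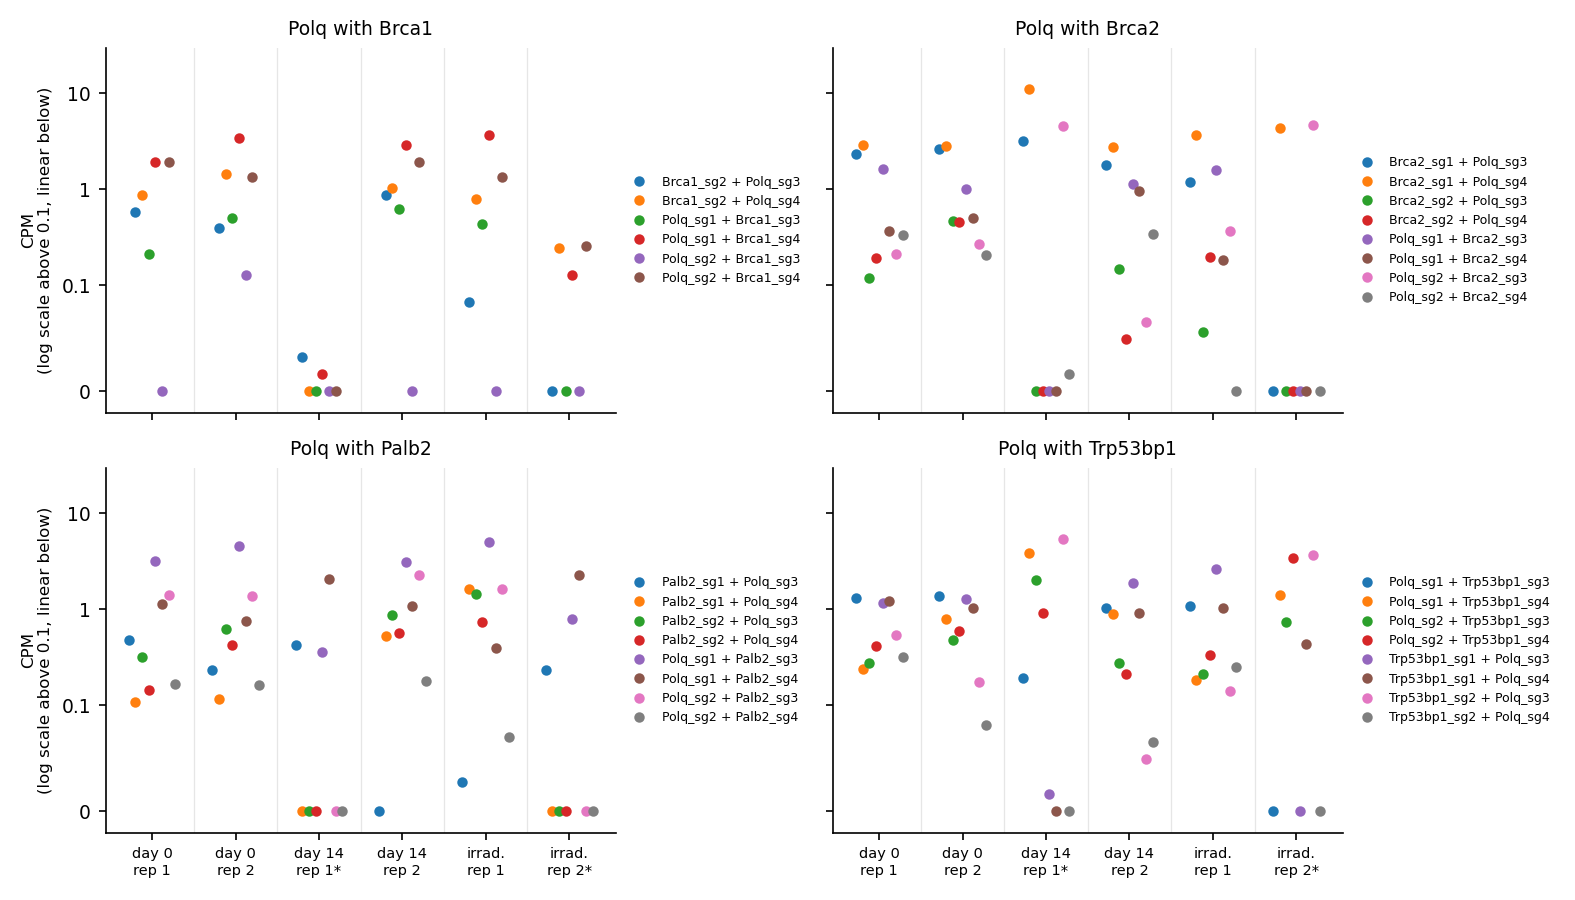
CPM of every construct that paired a Polq guide with Brca1, Brca2, Palb2 or Trp53bp1, by library. Each colour is 1 construct, the axis is logarithmic above 0.1 and linear below, and asterisks mark the incomplete libraries. Most constructs sit at or near 0 in day 14 replicate 1 and irradiated replicate 2, while a few there exceed their day 0 level.

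Of the constructs of Polq with these partners or with itself, 26 had a mean of at least 20 reads and were tested singly with edgeR among 671663 guide pairs. None passed in any comparison, and 0% of all guide pairs did. Of the 26, 0 had an unadjusted p under 0.05 in each comparison, against 3276, 1579 and 2157 of all guide pairs. The median 95% half-width was 5.69 on the log2 scale. Without the 2 incomplete libraries it was 1.64. Palb2_sg1;Polq_sg4 was then at 3.92 after irradiation against day 0. That construct had 9 and 10 reads at day 0 and reached the mean of 20 only through its 116 reads in irradiated replicate 1. The 4 constructs with guides of Polq at both positions held 117 and 226 reads at day 0, 388 and 71 at day 14, and 288 and 159 after irradiation. All 388 reads of day 14 replicate 1 came from Polq_sg1;Polq_sg4.

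The interaction of Polq with a partner is the log2 change of their summed constructs minus the changes of both genes over all partners. With Brca1 it was -0.61 (-4.64 to 3.43) at day 14 and -0.66 (-4.70 to 3.38) after irradiation against day 0. With Brca2 it was 0.94 (-0.44 to 2.32) and 0.28 (-1.09 to 1.65). With Palb2 it was -0.099 (-1.71 to 1.51) and 0.20 (-1.41 to 1.81). With Trp53bp1 it was 0.96 (-0.64 to 2.57) and 0.60 (-0.99 to 2.20). No pair was called by edgeR, with adjusted p-values of 0.970 to 0.984 at day 14 and 1.00 after irradiation. The intervals of Brca1 and Palb2 reached past 1 on the log2 scale in both directions in both comparisons, and that of Brca2 did so after irradiation.

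Between irradiated and day 14 cells the interactions were -0.058 for Brca1, -0.66 for Brca2, 0.30 for Palb2 and -0.36 for Trp53bp1. Without the incomplete libraries the intervals narrowed, and the sign turned for Brca1, Palb2, Brca2 and Trp53bp1 at day 14. Brca1 was then at 0.38 (-0.18 to 0.94) at day 14 and 0.16 (-0.41 to 0.72) after irradiation against day 0. Brca2 was at -0.058 (-0.59 to 0.47) and -0.0013 (-0.53 to 0.53), and Trp53bp1 at -0.12 (-0.73 to 0.49) and 0.012 (-0.59 to 0.61). Palb2 was at 0.37 (-0.12 to 0.87) and 0.76 (0.27 to 1.25, adjusted p = 0.107).

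None of the 458 partners of Polq passed in the 3 comparisons, beside 0% of all 105111 gene pairs in each. Each gene's median over its partners is subtracted in the fit, so the median interaction of Polq is near 0 by construction (-0.0096 at day 14) and is no result. Of the 458 partners, 233 were below 0 at day 14 and 230 after irradiation against day 0. Without the incomplete libraries these counts were 241 and 230. An unadjusted p under 0.05 was reached by 2, 3 and 3 partners of Polq, and by 452, 372 and 876 of all pairs. The median half-width of the intervals was 1.34 with all 6 libraries and 0.52 at day 14 without the incomplete ones.

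**Figure D5:**
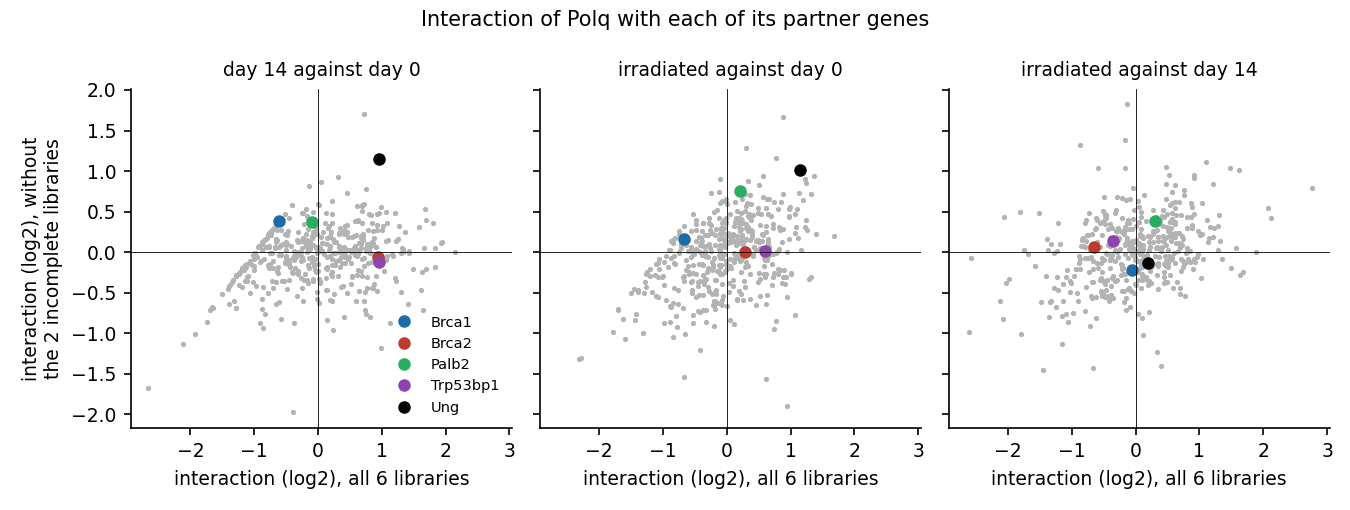
Interaction of Polq with each of 458 partner genes (grey points) with all 6 libraries, on the horizontal axis, and without the 2 incomplete libraries, on the vertical axis, both on the log2 scale. Coloured points are Brca1, Brca2, Palb2, Trp53bp1 and Ung. The horizontal spread exceeds the vertical one, and Ung is above 0.9 on both axes in the first 2 panels.

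A list drawn up around alternative end joining held Parp1, Lig3, Xrcc1 and Fen1, and wider members such as Polb, Apex2 and Rad1. It gave 20 partners, and 0 passed in any comparison. At day 14, 10 were below 0 with a median of 0.028, and after irradiation 10 were below 0 with a median of -0.023. In the complete libraries alone 12 and 11 were below 0, with medians of -0.21 and -0.12. Polb, the gap-filling polymerase of base excision repair, had the smallest p of the list in all 3 comparisons. Its pair with Polq had 892 and 741 reads at day 0, 1040 and 528 at day 14, and 398 and 331 after irradiation. Both irradiated libraries were below all others, in reads and in CPM. The interaction was 0.63 (-0.55 to 1.82) at day 14, -0.85 (-2.04 to 0.34) after irradiation and -1.48 (-2.69 to -0.28, edgeR adjusted p = 1.00) between irradiated and day 14 cells. The complete libraries alone gave -0.022, -0.63 and -0.61 (-1.21 to -0.015, edgeR adjusted p = 0.735).

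Genes of homologous recombination gave 29 partners, with 0 called, 15 below 0 at day 14 and 17 after irradiation, and medians of -0.099 and -0.075. In the complete libraries alone 21 were below 0 at day 14 and 13 after irradiation, with medians of -0.14 and 0.029. Among all 458 partners 241 and 230 were below 0 there. Bccip, a BRCA2-binding protein, led at day 14 with 1.84 (-0.43 to 4.11), which turned to -0.18 without the incomplete libraries. Mcm8, a helicase subunit, led after irradiation with 0.72 (-0.33 to 1.77), and Rad51d between irradiated and day 14 cells with 1.04 (-0.22 to 2.30). From the complete libraries alone Mcm8 was at 0.30 (-0.19 to 0.78) and Rad51d at 0.22 (-0.38 to 0.82).

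End protection genes, 53BP1 and shieldin among them, gave 12 partners, with 0 called. Their median was -0.66 at day 14 with 7 below 0, and 0.47 after irradiation with 3 below 0. Without the incomplete libraries these medians were -0.13 and -0.11. Rnf8, a ubiquitin ligase of the break response, led after irradiation with 1.23 (-0.18 to 2.64), which was 0.31 (-0.28 to 0.90) without the incomplete libraries. Its reads with Polq were 470 and 537 at day 0, 284 and 307 at day 14, and 425 and 1227 after irradiation. Polq_sg1;Rnf8_sg4 held 844 of the 1227.

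Non-homologous end joining gave 14 partners with 0 called and medians of 0.076 at day 14 and -0.035 after irradiation, or 0.011 and 0.085 without the incomplete libraries. Lig4, the ligase of that pathway, led at day 14 with 0.69 (-0.33 to 1.71), and with 0.58 (0.035 to 1.12, adjusted p = 0.797) without the incomplete libraries. Dclre1c, the Artemis nuclease, led after irradiation with 0.72 (-0.82 to 2.26), and Nhej1, the XLF protein, between irradiated and day 14 cells with -1.19 (-2.84 to 0.46). These values were -0.31 and 0.11 without the incomplete libraries.

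Genes commonly described as depending on POLQ when lost gave 27 partners, with 0 called, 16 below 0 at day 14 and 14 after irradiation, and medians of -0.099 and -0.0087. In the complete libraries alone 18 and 12 were below 0, with medians of -0.088 and 0.063. Fanci, of the Fanconi anemia pathway, led between irradiated and day 14 cells with -2.58 (-5.36 to 0.19), which was -0.068 without the incomplete libraries. All 730 of its reads with Polq in day 14 replicate 1 belonged to Fanci_sg2;Polq_sg4, which had 29 and 8 reads at day 0.

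Poln, the other family A polymerase measured, and Helq, a helicase related to the helicase-like domain of POLQ, were not called with Polq either. With all 6 libraries Poln had interactions of -0.31 (-1.62 to 1.00) at day 14 and 0.22 (-1.09 to 1.53) after irradiation. Helq had -1.16 (-4.41 to 2.09) and -0.10 (-3.31 to 3.10). The reads of Helq with Polq were 672 and 832 at day 0, 6 and 429 at day 14, and 476 and 552 after irradiation, and without the incomplete libraries its day 14 value was -0.19. Poln then had 0.25 at day 14 and 0.48 after irradiation (0.070 to 0.90, edgeR adjusted p = 0.283).

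The partners with the smallest p at day 14 were Ung, which removes uracil from DNA, Nudt1, which clears oxidised nucleotides, and Neil3, a glycosylase. Ung had an interaction of 0.96 (0.076 to 1.84, edgeR adjusted p = 0.970) at day 14 and, again with the smallest p, 1.15 (0.26 to 2.03, edgeR adjusted p = 1.00) after irradiation. Ung with Polq had 530 and 1183 reads at day 0, 887 and 1458 at day 14, and 1477 and 1920 after irradiation. In CPM all 4 later libraries, from 14.3 to 23.8, were above both of day 0, which differed from each other (6.28 and 13.7). Polq_sg2;Ung_sg4 had 42 and 391 reads at day 0, 0 and 871 at day 14, and 641 and 0 after irradiation. Polq_sg1;Ung_sg3 was steadier, with 189 and 280, 202 and 225, and 396 and 625.

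Nudt1 had an interaction of 1.92 (0.056 to 3.79) at day 14, and Polq_sg1;Nudt1_sg4 held 2033 of the 2151 reads of that pair in day 14 replicate 1. Without the incomplete libraries it was 0.11. Neil3 had 0.93 (-0.015 to 1.87), and 0.47 without those libraries. After irradiation against day 0, Cdc7, the kinase that starts replication, had 1.08 (0.0074 to 2.14) and Twist1, a transcription factor, 1.36 (0.0057 to 2.72). The complete libraries alone gave 0.47 and 0.94. Polq_sg2;Cdc7_sg3 held 1404 of the 1682 reads of Cdc7 with Polq in irradiated replicate 2, and Polq_sg1;Twist1_sg3 held 613 of the 862 of Twist1. Between irradiated and day 14 cells Fign, an AAA ATPase, had -2.62 (-4.78 to -0.45) and Pwwp3a -1.08 (-2.16 to -0.0096), and without the incomplete libraries -0.99 and -0.77. Fign_sg1;Polq_sg4 held 629 of the 630 reads of Fign with Polq in day 14 replicate 1.

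Without the incomplete libraries, edgeR called 3 of 458 partners of Polq (0.655%) at day 14, beside 0.16% of all gene pairs. After irradiation it called 4 (0.873%) against day 0, beside 1.21%, and 1 (0.218%) against day 14, beside 0.205%. These partners, named after their values were seen, were Bach1, Hus1b and Ung at day 14, Bach1, Ier3, Tnks1bp1 and Ung after irradiation, and Hus1b between irradiated and day 14 cells. Ung had 1.15 (0.76 to 1.53, adjusted p = 3.73e-05) and 1.01 (0.62 to 1.40, adjusted p = 2.55e-04). When the largest construct of each pair was also left out, Ung had 0.30 (-0.17 to 0.77, adjusted p = 0.896) and 0.66 (0.20 to 1.13, adjusted p = 0.149).

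Bach1 and Hus1b also lost their calls without 1 construct. Polq_sg2;Bach1_sg3 had 23 and 439 reads at day 0, 556 in the complete day 14 library and 1284 in the complete irradiated one, and without it the interaction of Bach1 after irradiation went from 1.67 to 0.42 (adjusted p = 0.565). Hus1b_sg1;Polq_sg3 had 51 and 98 reads at day 0, 538 in the complete day 14 library and 6 in the complete irradiated one, and without it Hus1b at day 14 went from 1.71 to 0.19 (adjusted p = 0.973). Ier3 went from 1.16 to 0.86 (adjusted p = 0.116). The construct left out was that with the largest summed share of reads in the complete libraries, later ones included. Leaving it out therefore tends to remove a construct that rose rather than a construct that fell. Tnks1bp1 was at -1.90 and then at -2.39. Its reads with Polq were 309 and 256 at day 0, 147 and 61 in the complete day 14 and irradiated libraries, and 691 and 734 in the incomplete ones, and with all 6 libraries its interaction after irradiation was 0.95.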

How the data were processed

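The deposited values are raw read counts per pair of guides, per the file headers and the values, in a table of day 0 and day 14 and a table of irradiated libraries. Pairs not listed in a library were set to 0. HISAT2 2.1.0 and hg38 appear in the submitters' processing notes, with no role. The step that assigned reads to guides is not described there. The combined tables hold 2 columns that match no sample, and these were not used. Groups and replicates came from the titles.

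Counts were summed per guide (mean of at least 2000, TMM within each position), per gene over constructs with a non-targeting guide (mean of at least 20, scaled by pairs of non-targeting guides), and per pair of genes, with both genes' effects from an additive fit of medians (prior count 2, 25 iterations) as offset. Guide pairs needed a mean of 20. Each was fitted to the whole table in edgeR 4.0.16 (R 4.3.3), quasi-likelihood test, two-sided, all 6 libraries, Benjamini-Hochberg, and run on simulated data. The simulated libraries varied less than the real ones and none was incomplete. That run therefore cannot show which changes the tests could detect here. Intervals are at 95%. DESeq2 1.42.0 and limma 3.58.1 served as alternatives.

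Polq, the partner lists and the tests were chosen with earlier results of these data known. By rule the text names Polq, its guides, Brca1, Brca2, Palb2 and Trp53bp1, the 3 partners of smallest interaction p per comparison, partners of smallest p in each list, and the 3 genes most like Polq. PCR reads are not independent molecules.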

Additional observations from a re-analysis of the deposited data

How the results depend on the processing

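No Polq guide and no tested Polq guide pair was called in any alternative, and no partner in any with all 6 libraries or with 1 left out. The incomplete libraries bore most on the partners. Without both, the calls among 458 partners were 3, 4 and 1 for the comparison of day 14 with day 0, then of irradiated cells with day 0 and with day 14, and without the largest construct of each pair as well, 6 partners were called in irradiated against day 0, among 745 of 105111 gene pairs. Dropping the largest construct and fitting each position apart were chosen after seeing the data.

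Signs turned as follows, with the cause not tested beyond the change of libraries or constructs itself. Without both incomplete libraries, day 14 gave Polq_sg2 0.034, Brca1 0.38, Brca2 -0.058, Palb2 0.37, Trp53bp1 -0.12, Polb -0.022 and Bccip -0.18. Irradiated against day 0 gave Brca1 0.16, Brca2 -0.0013 and Dclre1c -0.31, and irradiated against day 14 gave Brca2 0.057, Trp53bp1 0.13 and Nhej1 0.11. Without the largest construct as well, the values were Brca1 0.56, Brca2 -0.046, Palb2 0.84, Trp53bp1 -0.31 and Helq 0.072 at day 14, Brca2 -0.34, Trp53bp1 -0.38 and Mcm8 -0.18 in irradiated against day 0, and Rad51d -0.13, Rnf8 -0.096, Nhej1 0.16 and Poln -0.062 in irradiated against day 14. Without the largest construct alone, Palb2 was 0.89 at day 14, and Palb2 was -0.086 and Fanci 0.046 in irradiated against day 14. limma-trend gave Brca1 1.38 in irradiated against day 14. Scaling by non-targeting guides gave Polq_sg1 0.046 in irradiated against day 0, and Polq_sg2 0.012 and Polq_sg3 -0.051 at day 14, and library totals gave Polq_sg3 -0.044 at day 14.

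With 1 library left out at a time, the single knockout of Polq ran from 0.013 to 0.13, 0.022 to 0.48 and -0.048 to 0.41. At day 14 Polq_sg1 ran from -0.18 to 0.076, Polq_sg2 from -0.064 to 0.035, Polq_sg3 from -0.0050 to 0.018, Brca1 from -6.29 to 0.38, Brca2 from -0.058 to 1.52, Palb2 from -0.81 to 0.37, Trp53bp1 from -0.12 to 1.57, Bccip from -0.18 to 2.65 and Polb from -0.022 to 1.08. In irradiated against day 0 Polq_sg1 ran from -0.052 to 0.046, Brca1 from -2.76 to 0.16, Brca2 from -0.0017 to 0.52, Palb2 from -0.71 to 0.76, Poln from -0.10 to 0.48 and Dclre1c from -0.31 to 1.32. In irradiated against day 14 Polq_sg1 ran from -0.077 to 0.18, Polq_sg2 from -0.013 to 0.085, Polq_sg4 from -0.32 to 0.10, Brca1 from -2.16 to 5.62, Brca2 from -1.24 to 0.34, Palb2 from -0.61 to 1.01, Trp53bp1 from -0.97 to 0.72, Nhej1 from -1.87 to 0.11 and Poln from -0.027 to 1.46.

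Whether replicate numbers pair the libraries could not be told. The deviations of replicate 1 from replicate 2 correlated at -0.045, 0.11 and -0.58 between groups. The last value is for day 14 and irradiated libraries. There the incomplete library is replicate 1 at day 14 and replicate 2 after irradiation, so this value cannot show a pairing. With the replicate block the single knockout of Polq was 0.070, 0.26 and 0.19, Brca1 in irradiated against day 14 turned to 0.70, and 0 Polq guides or partners were called. With the numbers crossed between irradiated and day 14 libraries, a fit run because of the last correlation, 36 of 1849 guides were called, 0 of them of Polq. That crossing put both incomplete libraries in the same block, so it separates complete from incomplete libraries and is no check of a pairing. Over all guides, edgeR's 0 calls per comparison became 22, 24 and 30 with DESeq2, 2, 1 and 10 with each position fitted apart, and 313 and 311 at day 14 and after irradiation without day 0 replicate 2. The median half-width of the 95% interval for single guide pairs at day 14 was 5.69 on the log2 scale with all 6 libraries and 1.64 without the incomplete ones.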
